A study of Mus musculus with 24 samples.

Results

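The RNA of 10 chemokine genes was followed in cultured alveolar epithelial cells of the mouse with and without keratin 8. The genes were chosen by name, as Cxcl1, Cxcl2, Cxcl3, Cxcl5, Cxcl10, Cxcl16, Cx3cl1, Ccl2, Ccl7, and Ccl20, and are 10 of the 55421 genes in the deposited count table. Type 2 alveolar epithelial cells (AEC2s), the surfactant-producing progenitors of the alveolus, were isolated from Krt8+/+ (labelled WT) and Krt8-/- (labelled KO) mice. RNA was taken from fresh cells (day 0) and after 1, 3, and 7 days in 2D culture. Each sample name carries 1 of 3 dates, called isolations 1, 2, and 3 here, and does not say what the date marks. Krt8+/+ and Krt8-/- cells of the same isolation came from different mice. There were 24 libraries, 3 for each of 8 groups of genotype and day, with each isolation present in every group. No agent was added in any group, and the Krt8-/- mice lack the gene in all of their cells, not in the epithelium alone. The sources used here do not give the age and strain of the mice or the number of mice behind an isolation.

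Chemokines are small proteins that bind receptors on leukocytes and direct their movement. Cxcl1, Cxcl2, Cxcl3, and Cxcl5 carry the ELR motif, bind Cxcr2, and attract neutrophils. Ccl2 and Ccl7 bind Ccr2 and draw monocytes out of the blood into injured lung. Cxcl10 is induced by interferons and attracts T cells through Cxcr3, and Ccl20 attracts dendritic cells and lymphocytes that bear Ccr6. Cxcl16 and Cx3cl1 are made as transmembrane proteins that can hold cells with Cxcr6 or Cx3cr1 in place, and the sheddases Adam10 and Adam17 release their soluble forms. In the alveolus, epithelial cells and resident macrophages can both make chemokines.

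Most of these genes sit close together. In GRCm38, Cxcl5 (ENSMUSG00000029371, 90759360 to 90761624), Cxcl3 (ENSMUSG00000029379, 90786103 to 90789600), Cxcl1 (ENSMUSG00000029380, 90891241 to 90893115), and Cxcl2 (ENSMUSG00000058427, 90903871 to 90905938) lie on the plus strand of chromosome 5. The gaps between the neighbors named are 24.5, 101.6, and 10.8 kb. Cxcl10 (ENSMUSG00000034855) lies on the minus strand of chromosome 5 from 92346638 to 92348889. Ccl2 (ENSMUSG00000035385, 82035571 to 82037453) and Ccl7 (ENSMUSG00000035373, 82045712 to 82047525) lie 8.3 kb apart on the plus strand of chromosome 11, and Cxcl16 (ENSMUSG00000018920) lies on its minus strand from 70453983 to 70459984. Cx3cl1 (ENSMUSG00000031778) is on chromosome 8 from 94772009 to 94782427, and Ccl20 (ENSMUSG00000026166) is on chromosome 1 from 83116766 to 83119167, both on the plus strand.

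Promoter sequence from RefSeq (GRCm38.p6) was found for 6 of the 10 genes and not for Ccl2, Ccl7, Cxcl5, and Cxcl16. The 100 bases from 130 to 31 bases before the transcription start are shown for the 5 genes in which this stretch holds a match to the consensus of the NF-kB binding site (kappaB), since these genes rose in Krt8+/+ AECs on day 1 or, for Ccl20, on day 3 of culture. None of these 5 stretches overlaps an annotated exon. Each is written 5′ to 3′ on the strand of its gene, with the kappaB match in capitals.
Cxcl1, chr5:90891115-90891214, plus strand: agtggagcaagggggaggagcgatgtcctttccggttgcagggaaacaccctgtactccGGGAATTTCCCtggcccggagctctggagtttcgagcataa
Cxcl2, chr5:90903769-90903868, plus strand: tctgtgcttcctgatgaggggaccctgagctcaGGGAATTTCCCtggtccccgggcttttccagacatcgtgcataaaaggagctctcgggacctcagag
Cxcl3, chr5:90785971-90786070, plus strand: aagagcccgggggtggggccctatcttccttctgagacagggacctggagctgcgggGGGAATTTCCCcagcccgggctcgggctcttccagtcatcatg
Cxcl10, chr5:92348920-92349019, minus strand: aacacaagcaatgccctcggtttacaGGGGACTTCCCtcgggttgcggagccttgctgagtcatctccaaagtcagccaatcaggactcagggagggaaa
Ccl20, chr1:83116636-83116735, plus strand: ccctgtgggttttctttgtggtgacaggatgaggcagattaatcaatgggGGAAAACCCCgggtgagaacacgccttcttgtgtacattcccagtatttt
The kappaB match of Cxcl1, Cxcl2, and Cxcl3 has the same 11 letters and reads on both strands, while that of Ccl20 is on the opposite strand. Cxcl10 holds a further kappaB match at bases -159 to -150 from its start. Cx3cl1, which like Ccl20 passed the test in Krt8+/+ AECs on day 3 and not on day 1, has no match in its window of 300 bases. Its stretch from 130 to 31 bases before the RefSeq start (chr8:94772050-94772149) lies inside the gene as placed above and overlaps an annotated exon. In windows of 300 bases around the start, 8.46% of 32851 mouse promoters hold a kappaB match on either strand. The core of an interferon response element (GAAA, any 2 bases, GAAA), searched on both strands as were the next 2 motifs, is in 3.44% of promoters and, of the 6 genes, in Cxcl10, beginning at base -213. The letters TGANTCA of an AP-1 site are in 7.81% of promoters and again in Cxcl10 alone of the 6, beginning at base -74. The letters TATAAA were found in 13.6% of promoters, in that of Cxcl3 at bases -30 to -25, and in that of Cx3cl1 at bases -6 to -1. A match is a stretch of letters, not a measured binding site.

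Total counts per library ranged from 10184439 to 19483386, and levels are given as CPM, the count scaled to a common library size with edgeR's TMM factors. Krt8 was at 485 to 552 CPM in fresh Krt8+/+ AEC2s and at 2599 to 5092 CPM in culture, against 21.2 to 47.4 CPM in the 12 Krt8-/- libraries. The sum of 8 AEC2 markers, surfactant genes included, fell in Krt8+/+ AECs from 275053 CPM when fresh to 57842, 536, and 211 on the 3 culture days, and in Krt8-/- AECs from 273651 to 54259, 563, and 175. In isolation 1, Xist was at 62.4 to 79.5 CPM in Krt8+/+ and Y-linked genes summed to 173 to 191 CPM in Krt8-/- libraries, so that sex and genotype cannot be told apart there. In isolations 2 and 3, both genotypes were of the same sex by these genes. Markers of 10 macrophage genes (10.8 to 428 CPM summed), of 7 fibroblast genes (94.7 to 3175 CPM), and of 4 mesothelial genes (66.3 to 2454 CPM) were detected in all libraries. The sum of 4 club and ciliated cell markers was larger on days 0 and 1 than on day 7. It was 5444 to 11487 CPM in fresh Krt8+/+ and 13826 to 19262 CPM in fresh Krt8-/- libraries. On day 1 its means were 9460 and 9112 CPM, and on day 7 they were 26.6 and 26.4 CPM. In such bulk RNA, fewer cells of a type and less RNA per cell cannot be told apart.

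**Figure D1:**
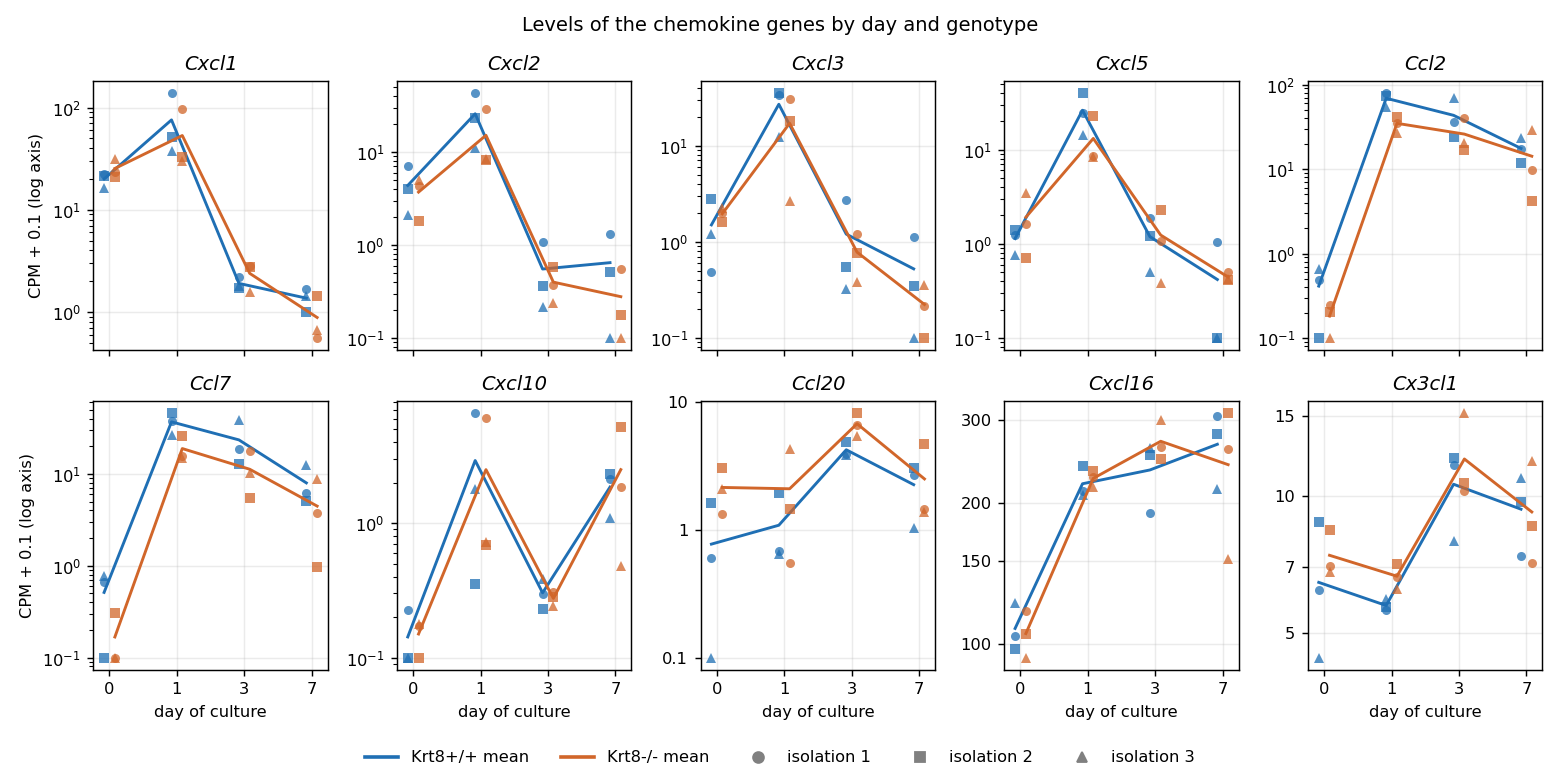
Level of each chemokine gene (CPM + 0.1, log axis) on days 0, 1, 3, and 7 of culture, drawn at equal steps. Points are the 3 isolations of each genotype and lines join the group means. Cxcl1, Cxcl2, Cxcl3, and Cxcl5 peak on day 1, Ccl2 and Ccl7 stay above their day 0 level through day 7, and Cxcl16 is between 93.4 and 311 CPM throughout.

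Among the 10 genes, the most abundant RNA below Cxcl16 changed from day to day. Compared per kb of exon, Cxcl16 had the highest level of the 10 genes in all 8 groups, from 34.8 ± 3.94 CPM per kb (SD, n = 3) in fresh Krt8-/- AEC2s to 89.6 ± 9.06 on day 3. In fresh Krt8+/+ AEC2s, Cxcl1 came next at 10.6 ± 1.65 CPM per kb, and Ccl2 and Cxcl10 were lowest at 0.274 ± 0.249 and 0.0188 ± 0.0326. On day 1 in Krt8+/+ AECs, Cxcl16 was at 72.7 ± 5.69 CPM per kb, followed by Ccl2 at 60.4 ± 11.7, Ccl7 at 45.9 ± 12.2, and Cxcl1 at 40.3 ± 29.0. These neighbors in the order lay within the sum of their SDs. On days 3 and 7, Ccl2 and Ccl7 held the places after Cxcl16 in both genotypes, and Cxcl1, Cxcl2, Cxcl3, and Cxcl5 were each below 1.3 CPM per kb.

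Whether chemokine RNA changed as AEC2s left the fresh state was tested by day in each genotype. Differences are log2 fold changes from edgeR's quasi-likelihood test, with p values adjusted by Benjamini-Hochberg over 18046 genes and a threshold of 0.05. The test reports no SE. The SE given is approximate, derived as the absolute log2 fold change divided by the square root of the test's F. All 10 chemokine genes passed the filter on low counts. From day 0 to day 1, 8 of the 10 genes rose in Krt8+/+ AECs and none fell, where 26.2% of all genes tested rose and 28.5% fell. The same 8 of 10 rose in Krt8-/- AECs, where 23.7% of all genes rose and 26.9% fell, and the count there was 4 without isolation 1 and 4 without isolation 2. The median log2 change of the 10 genes was 3.44 in Krt8+/+ and 2.43 in Krt8-/- AECs, and that of all genes was 0.00 and -0.01. Cx3cl1 and Ccl20 did not pass the test on day 1 in either genotype.

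Of the neutrophil chemokines, Cxcl1 was already present in fresh AEC2s. It was at 22.1, 21.2, and 16.4 CPM in the 3 Krt8+/+ isolations on day 0, at 138, 51.7, and 37.2 on day 1, at 2.10, 1.62, and 1.70 on day 3, and at 1.57, 0.912, and 1.33 on day 7. Every day 1 library was above every day 0 library, and all libraries of days 3 and 7 were below both. The rise on day 1 was 1.92 ± 0.44 (adjusted p = 0.00108) and the change from day 1 to day 3 was -5.38 ± 0.53 (adjusted p = 8.38e-07). Isolation 1 was the highest on day 1, and without it the rise was 1.24.

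Cxcl2 followed the same course at a lower level. In Krt8+/+ AECs it was at 6.93, 3.90, and 1.99 CPM on day 0, at 42.8, 23.3, and 11.1 on day 1, at 0.984, 0.259, and 0.113 on day 3, and at 1.23, 0.415, and 0 on day 7. It rose by 2.56 ± 0.79 on day 1 (adjusted p = 0.0092, and 0.0848 without isolation 2), and no day 1 library fell in the range of another day. From day 1 to day 3 it changed by -5.83 ± 0.96 (adjusted p = 0.000174).

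Cxcl3 and Cxcl5 were near the detection limit in fresh cells and peaked on day 1. Cxcl3 was at 0.382, 2.71, and 1.11 CPM on day 0, at 33.3, 34.9, and 12.1 on day 1, at 2.62, 0.454, and 0.227 on day 3, and at 1.02, 0.249, and 0 on day 7 in Krt8+/+ AECs. It rose by 4.31 ± 0.97 on day 1 (adjusted p = 0.000851) and changed by -4.61 ± 0.96 by day 3 (adjusted p = 0.00148, and 0.0688 without isolation 2). Leaving out isolation 1 or 2 gave a rise of 3.61 or 5.06. Cxcl5 was at 1.14, 1.3, and 0.664 CPM on day 0, at 24.3, 39.4, and 14.3 on day 1, at 1.77, 1.10, and 0.397 on day 3, and at 0.953, 0, and 0 on day 7. Its rise of 4.63 ± 0.86 (adjusted p = 0.000135) and its change of -4.58 ± 0.84 by day 3 (adjusted p = 0.000476) were of like size, and the libraries of days 0 and 3 overlapped. Of 50-base stretches of Cxcl2 exons, 5.84% also occur in Cxcl3, so a small part of the reads of both genes could be exchanged.

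Krt8-/- AECs showed the day 1 peak of these 4 genes too. Cxcl1 was at 23.5, 20.9, and 31.4 CPM on day 0, at 96.3, 32.9, and 30.1 on day 1, at 2.74, 2.65, and 1.48 on day 3, and at 0.457, 1.32, and 0.574 on day 7. Day 1 was above day 0 in isolations 1 and 2 and slightly below it in isolation 3. The rise was 1.07 ± 0.43 (adjusted p = 0.0448), and it was 0.27 (adjusted p = 0.543) without isolation 1 and 1.28 (adjusted p = 0.0916) without isolation 2.

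Cxcl2 in Krt8-/- AECs was at 4.25, 1.72, and 4.87 CPM on day 0, at 28.8, 8.04, and 8.33 on day 1, at 0.274, 0.482, and 0.141 on day 3, and at 0.457, 0.0779, and 0 on day 7. Cxcl3 was at 1.87, 1.52, and 2.16 CPM on day 0, at 30.6, 17.7, and 2.57 on day 1, at 1.10, 0.663, and 0.282 on day 3, and at 0.114, 0, and 0.255 on day 7. Cxcl5 was at 1.51, 0.607, and 3.32 CPM on day 0, at 8.43, 22.4, and 8.17 on day 1, at 0.960, 2.17, and 0.282 on day 3, and at 0.400, 0.311, and 0.319 on day 7. For all 3 genes, the day 1 libraries lay above those of every other day. The rises on day 1 were 2.04 ± 0.78 for Cxcl2 (adjusted p = 0.0343), 3.18 ± 0.91 for Cxcl3 (adjusted p = 0.00633), and 2.82 ± 0.78 for Cxcl5 (adjusted p = 0.00511). Without isolation 1 they were 1.3 for Cxcl2 and 2.45 for Cxcl3, and without isolation 2 they were 2.10, 3.10, and 1.86, and none of these 5 values passed 0.05 (adjusted p = 0.0543 to 0.182). By day 3 all 4 genes had fallen, with changes of -4.52 for Cxcl1, -5.58 for Cxcl2, -4.62 for Cxcl3 (adjusted p = 0.0503 without isolation 2), and -3.49 for Cxcl5.

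Cxcl1 and Cxcl2 ended below their level in fresh cells. On day 7 against day 0, Cxcl1 was changed by -3.95 ± 0.53 in Krt8+/+ (adjusted p = 2.12e-06) and by -5.05 ± 0.56 in Krt8-/- AECs (adjusted p = 1.92e-07). Cxcl2 was changed by -2.96 ± 0.90 (adjusted p = 0.00795, and 0.089 without isolation 2) and -4.19 ± 1.03 (adjusted p = 0.00149). On day 7, Cxcl3 and Cxcl5 were below day 0 past the threshold in Krt8-/- AECs, at -3.76 ± 1.23 (adjusted p = 0.0123) and -2.38 ± 0.92 (adjusted p = 0.0312). The call for Cxcl3 rested on isolation 2 (adjusted p = 0.102 without it), and that for Cxcl5 was lost without any of the 3 isolations (-2.65 to -1.58). In Krt8+/+ AECs the values were -1.62 ± 1.09 (adjusted p = 0.206) and -1.64 ± 0.98 (adjusted p = 0.157), on 18 counts of Cxcl3 and 14 of Cxcl5 in the 3 day 7 libraries. The test of genotype by day was not past 0.05 for any of the 10 genes.

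Ccl2 and Ccl7, the monocyte chemokines, had nearly no counts on day 0. In cultured Krt8+/+ AECs their levels per kb were the highest of the 10 genes after Cxcl16. In Krt8+/+ AECs, Ccl2 was at 0.382, 0, and 0.554 CPM on day 0, at 78.8, 73.8, and 53.7 on day 1, at 35.6, 24.1, and 69.7 on day 3, and at 17.2, 11.7, and 23.5 on day 7. Krt8-/- AECs had it at 0.144, 0.101, and 0 CPM on day 0, at 35.3, 41.8, and 26.9 on day 1, at 40.4, 16.6, and 20.4 on day 3, and at 9.72, 4.05, and 28.5 on day 7. All cultured libraries were above all fresh ones, and the level on day 3 was highest in isolation 3 of Krt8+/+ and in isolation 1 of Krt8-/- AECs. The 3 fresh Krt8+/+ libraries held 11 Ccl2 counts together, and day 1 was higher by 7.70 ± 0.79 (adjusted p = 1.05e-07, and 8.29 without isolation 3). The 3 fresh Krt8-/- libraries held 3 counts, so the ratio is given with its 95% counting interval, as 430-fold (147 to 2086) on day 1, 312-fold (106 to 1514) on day 3, and 178-fold (60.6 to 865) on day 7. The adjusted p of day 1 was 2.16e-07.

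Ccl7 ran beside Ccl2. In Krt8+/+ AECs it was at 0.572, 0, and 0.664 CPM on day 0, at 37.5, 46.1, and 26.6 on day 1, at 18.7, 12.6, and 38.7 on day 3, and at 6.13, 4.98, and 12.5 on day 7. Without keratin 8 it was at 0, 0.202, and 0 CPM on day 0, at 15.7, 25.9, and 14.7 on day 1, at 17.8, 5.42, and 10.1 on day 3, and at 3.60, 0.857, and 8.61 on day 7. As for Ccl2, isolation 3 was highest on days 3 and 7 in Krt8+/+ AECs and on day 7 in Krt8-/- AECs. Day 1 was above day 0 by 6.38 ± 0.84 in Krt8+/+ AECs (adjusted p = 2.72e-06, and 5.77 without isolation 2). In Krt8-/- AECs, with 2 counts on day 0, it was 355-fold higher (98.0 to 2940, adjusted p = 2.79e-06). Across the 24 libraries, log2(CPM + 0.1) of Ccl2 and Ccl7 had a Pearson r of 0.98, which is given as a description, since the libraries share isolations and culture days.

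After day 1, neither gene passed the threshold between successive culture days, while the 4 neutrophil chemokines fell between days 1 and 3. From day 1 to day 3, Ccl2 changed by -0.67 ± 0.50 (adjusted p = 0.345) and Ccl7 by -0.65 ± 0.59 (adjusted p = 0.443) in Krt8+/+ AECs. From day 3 to day 7 the changes were -1.30 ± 0.52 (adjusted p = 0.152) and -1.56 ± 0.61 (adjusted p = 0.147), lower in 3 of 3 isolations. On day 7, Ccl2 was still 5.73 ± 0.78 and Ccl7 4.16 ± 0.82 above day 0 (adjusted p = 2.71e-06 and 0.000202).

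**Figure D2:**
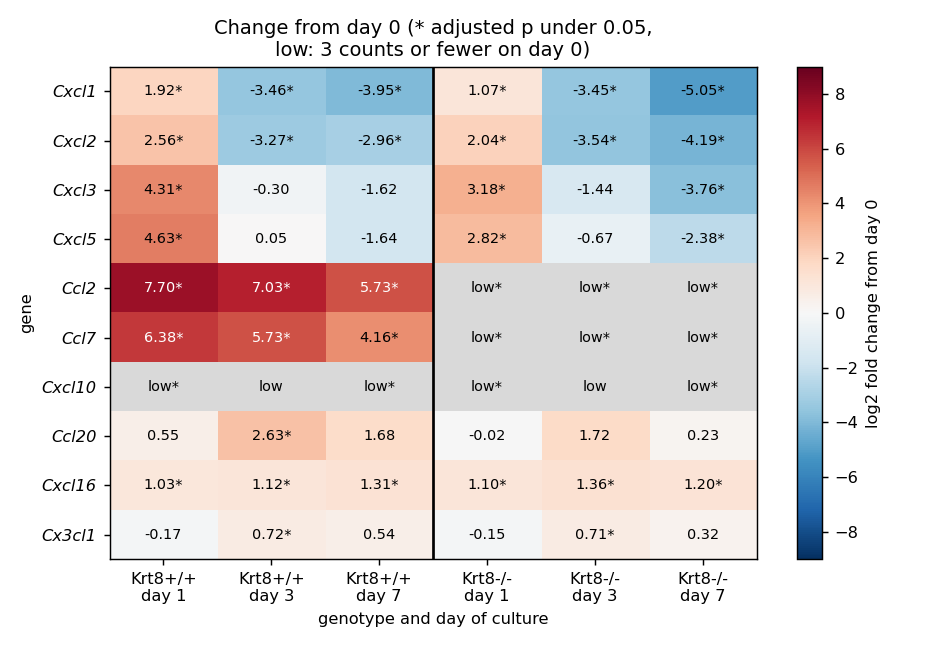
Log2 fold change of each chemokine gene (rows) from day 0 to days 1, 3, and 7 in Krt8+/+ and Krt8-/- AECs (columns), by color and number. An asterisk marks an adjusted p under 0.05 in edgeR's test, and grey cells marked low had 3 counts or fewer on day 0. In both genotypes, Cxcl1 and Cxcl2 turn from a rise on day 1 to a fall on days 3 and 7, while Ccl2, Ccl7, and Cxcl16 stay above day 0 on all 3 days.

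Cxcl10, the interferon-induced chemokine, had peaks on days 1 and 7 with a trough between them. In Krt8+/+ AECs it was at 0.127, 0, and 0 CPM on day 0, at 6.54, 0.251, and 1.70 on day 1, at 0.197, 0.130, and 0.284 on day 3, and at 2.04, 2.24, and 0.994 on day 7. The Krt8-/- libraries held it at 0.0720, 0, and 0.0773 CPM on day 0, at 6.01, 0.584, and 0.623 on day 1, at 0.206, 0.181, and 0.141 on day 3, and at 1.77, 5.06, and 0.383 on day 7. Isolation 1 was the highest library of day 1 in both genotypes, and isolation 2 the highest of day 7. Each genotype held 2 counts on day 0, so day 1 was 49.3-fold higher (13.4 to 412, adjusted p = 0.00222) in Krt8+/+ and 39.1-fold higher (10.5 to 328, adjusted p = 0.00322) in Krt8-/- AECs. Day 7 was 29.2-fold (7.81 to 246) and 40.7-fold (11.0 to 341) above day 0. The day 1 call in Krt8-/- AECs was lost without isolation 1 (adjusted p = 0.11).

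The fall of Cxcl10 from day 1 to day 3 was -3.73 ± 1.11 in Krt8+/+ (adjusted p = 0.0175) and -3.69 ± 1.14 in Krt8-/- AECs (adjusted p = 0.0237). Without isolation 1 these were -2.19 and -1.84 (adjusted p = 0.24 and 0.39), and without isolation 3 they were -4.32 and -4.01 (adjusted p = 0.0621 and 0.0855). From day 3 to day 7, Cxcl10 was the chemokine gene that rose in Krt8-/- AECs, by 3.69 ± 1.14 (adjusted p = 0.0407, where 4.4% of all genes rose and 6.15% fell). That call was lost without each of the 3 isolations (2.59 to 4.08, adjusted p = 0.117 to 0.266). In Krt8+/+ AECs the difference was 3.04 ± 1.11 (adjusted p = 0.115), higher in 3 of 3 isolations.

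No chemokine gene passed the threshold between days 3 and 7 in Krt8+/+ AECs by edgeR, where 6.58% of all genes did. The count was 3 at an unadjusted p under 0.05 (Cxcl10, Ccl2, and Ccl7), which 19.2% of all genes reached, and it was 0 by DESeq2, with 4 at an unadjusted p under 0.05.

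Ccl20 rose last. In Krt8+/+ AECs it was at 0.509, 1.52, and 0 CPM on day 0, at 0.588, 1.84, and 0.543 on day 1, at 3.87, 4.80, and 3.80 on day 3, and at 2.59, 2.99, and 0.928 on day 7. Krt8-/- AECs had it at 1.22, 2.94, and 2.01 CPM on day 0, at 0.448, 1.36, and 4.20 on day 1, at 6.58, 8.20, and 5.35 on day 3, and at 1.37, 4.59, and 1.28 on day 7. The libraries of day 3 were above those of every other day in both genotypes. Day 3 was above day 0 by 2.63 ± 0.83 in Krt8+/+ AECs (adjusted p = 0.0114), with 0.085 without isolation 1 and a difference of 3.78 without isolation 2. In Krt8-/- AECs the difference was 1.72 ± 0.76 (adjusted p = 0.0635, and 0.0279 with isolation as a block). The block also brought Ccl20 past the threshold in Krt8+/+ AECs for day 3 against day 1 (2.08 ± 0.79, adjusted p = 0.0572 without and 0.0212 with the block) and for day 7 against day 0 (1.68 ± 0.84, adjusted p = 0.09 without and 0.0447 with it).

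The transmembrane chemokines varied least. Cxcl16 was at 104, 97.3, and 122 CPM in fresh Krt8+/+ AEC2s, at 212, 239, and 208 on day 1, at 190, 253, and 262 on day 3, and at 306, 280, and 214 on day 7. Without keratin 8 it was at 117, 105, and 93.4 CPM on day 0, at 226, 233, and 216 on day 1, at 263, 247, and 301 on day 3, and at 261, 311, and 152 on day 7. All cultured libraries were above all fresh ones. It rose by 1.03 ± 0.20 (adjusted p = 0.000199) in Krt8+/+ and by 1.10 ± 0.20 (adjusted p = 0.000108) in Krt8-/- AECs on day 1, and did not pass the test between days 1 and 3 or days 3 and 7. Exons of Cxcl16 overlap those of Zmynd15 on the opposite strand, and the sources used here do not say whether counting used strand. Zmynd15 was at 0.972 to 6.88 CPM.

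Cx3cl1 was at 6.10, 8.67, and 4.32 CPM on day 0, at 5.51, 5.60, and 5.84 on day 1, at 11.6, 12.1, and 7.89 on day 3, and at 7.28, 9.62, and 10.9 on day 7 in Krt8+/+ AECs. The Krt8-/- libraries held it at 6.91, 8.30, and 6.72, then 6.55, 7.00, and 6.15, then 10.1, 10.6, and 15.1, and on day 7 at 7.03, 8.49, and 11.9 CPM. Day 3 was above day 1 in all isolations of both genotypes, by 0.89 ± 0.26 in Krt8+/+ (adjusted p = 0.0157) and 0.86 ± 0.26 in Krt8-/- AECs (adjusted p = 0.0208). These calls did not hold with fewer isolations. Without isolation 1 or 2, the Krt8+/+ difference was 0.80 and 0.78 (adjusted p = 0.143 and 0.167), and the Krt8-/- difference was 0.61 to 0.97 without each isolation (adjusted p = 0.0872 to 0.147). Against day 0, the rise on day 3 was 0.72 ± 0.26 (adjusted p = 0.0244, and 0.192 without isolation 1) and 0.71 ± 0.26 (adjusted p = 0.0266, 0.103 without isolation 1 and 0.176 without isolation 3).

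From day 1 to day 3, then, 1 gene (Cx3cl1) rose and 5 (Cxcl1, Cxcl2, Cxcl3, Cxcl5, and Cxcl10) fell in each genotype. Of all genes tested, 14.4% rose and 11.9% fell in Krt8+/+ AECs, and 13.4% rose and 10.2% fell in Krt8-/- AECs. The median log2 change of the 10 genes was -2.20 and -2.12, beside -0.05 and -0.03 over all genes. On day 3 against day 0, 5 genes were higher (26.1% of all genes) and 2 lower (27.8%) in Krt8+/+ AECs, and 4 were higher (25.4%) and 2 lower (26.6%) in Krt8-/- AECs. On day 7 against day 0, 4 were higher in each genotype (28.6% of all genes in both), 2 were lower in Krt8+/+ (30.2%), and 4 were lower in Krt8-/- AECs (29.9%).

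The comparison of genotypes asks whether chemokine RNA depends on keratin 8. Between Krt8-/- and Krt8+/+ AECs, none of the 10 genes passed the threshold on day 0, 1, 3, or 7, over days 1 to 7, or for genotype by day, either by edgeR or by DESeq2. The edgeR adjusted p was 1.00 in each case, and 0.0277% of all genes passed on day 0, 0.0166% on each culture day, 0.0277% over days 1 to 7, and 0.00554% for genotype by day. At an unadjusted p under 0.05, edgeR counted 1 gene over days 1 to 7 and 0 in the other 5 comparisons, and DESeq2 counted 2 on day 0, 2 over days 1 to 7, and 0 in the other 4. With isolation as a block, the genes at an unadjusted p under 0.05 from edgeR were Ccl20 on day 0, Ccl2 on day 1, and Ccl2 and Ccl7 over days 1 to 7, each with an adjusted p of 1.00. Of all genes, edgeR's unadjusted p was under 0.05 for 2.65% on day 0, 3.54% on day 1, 2.5% on day 3, 1.41% on day 7, 2.88% over days 1 to 7, and 1.49% for genotype by day. The median log2 difference of the 10 genes was -0.58 on day 1 and -0.13 over days 1 to 7, beside -0.01 and 0.00 over all genes. These tests leave wide intervals, and a p that misses the threshold does not show that the genotypes had equal levels.

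On day 1, each of the 3 isolations had less Ccl2 and Ccl7 RNA in Krt8-/- AECs, and the groups did not overlap for either gene, which held for 2.3% of all genes in that direction. The ratio of Krt8-/- to Krt8+/+ AECs of the same isolation was 0.448, 0.566, and 0.502 for Ccl2 and 0.419, 0.561, and 0.553 for Ccl7. The log2 difference was -0.99 ± 0.51 (95% interval -2.05 to 0.07, unadjusted p = 0.0661 from edgeR, and 0.0474 with the block) for Ccl2 and -0.97 ± 0.60 (-2.21 to 0.28, unadjusted p = 0.121 from edgeR) for Ccl7. Without each isolation in turn, the Ccl2 difference was -1.09 to -0.89 and that of Ccl7 -1.07 to -0.84.

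The neutrophil chemokines also had lower day 1 values without keratin 8 in 3 of 3 isolations, but the groups overlapped. The log2 difference was -0.51 ± 0.42 for Cxcl1, -0.78 ± 0.73 for Cxcl2, -0.66 ± 0.81 for Cxcl3, and -0.99 ± 0.71 for Cxcl5, each with a 95% interval that spans 0. The within-isolation ratio for Cxcl1 was 0.700, 0.637, and 0.810, and that for Cxcl3 ran from 0.917 in isolation 1 to 0.213 in isolation 3. Cx3cl1 went the other way, by 0.22 ± 0.26 (-0.33 to 0.77), with all 3 Krt8-/- libraries above the Krt8+/+ ones, as for 3.49% of all genes in that direction. For Cxcl16 the difference was 0.04 ± 0.19 (-0.37 to 0.44).

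On days 3 and 7, the isolations differed in direction for Ccl2 and not for Ccl7. The Ccl2 ratio was 1.14, 0.690, and 0.293 on day 3 and 0.567, 0.346, and 1.21 on day 7, so that it was above 1 in isolation 1 on day 3 and in isolation 3 on day 7. The Ccl7 ratio was 0.953, 0.429, and 0.262 on day 3 and 0.588, 0.172, and 0.687 on day 7, below 1 in every isolation. The log2 difference on day 3 was -0.74 ± 0.51 for Ccl2 and -1.07 ± 0.60 for Ccl7, and it was -0.07 and -0.43 without isolation 3 and -1.34 and -1.72 without isolation 1. On day 7 it was -0.31 ± 0.52 for Ccl2 (-1.05 without isolation 3) and -0.85 ± 0.62 for Ccl7. In fresh AEC2s, 3 counts of Ccl2 stood against 11 and 2 counts of Ccl7 against 15, and the interval of the difference spanned 0 for both (unadjusted p = 0.248 and 0.0893 from edgeR).

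Over days 1 to 7, with days weighted as in the area under the curve, Ccl7 was lower by a log2 difference of -0.98 ± 0.38 (-1.77 to -0.19) in Krt8-/- AECs. This was the largest difference in proportion to its SE among the 10 genes (unadjusted p = 0.0179 from edgeR, adjusted p = 1.00). Ccl2 differed by -0.64 ± 0.32 (-1.30 to 0.03, unadjusted p = 0.0587 from edgeR, and 0.0396 with the block). Without each isolation, the values were -1.29 to -0.81 for Ccl7 and -0.86 to -0.55 for Ccl2. Ccl20 differed by 0.57 ± 0.46 (-0.39 to 1.52), higher in Krt8-/- AECs in 3 of 3 isolations, and on day 3 its groups did not overlap (0.69 ± 0.72), as for 6.79% of all genes in that direction.

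The area under the curve of CPM from day 1 to day 7 was also compared within isolations. It was lower in Krt8-/- AECs in 3 of 3 isolations for 6 of the 10 genes (Cxcl1, Cxcl2, Cxcl3, Cxcl5, Ccl2, and Ccl7), and 15.2% of all genes were. This count is a description, since the 10 genes were chosen with earlier results of these data known. Cxcl1, Cxcl2, Cxcl3, and Cxcl5 also vary together across libraries, as do Ccl2 and Ccl7. With 3 pairs no exact test can reach 0.05, so no p is given. The ratio was 0.801, 0.588, and 0.469 for Ccl2 (geometric mean 0.604) and 0.722, 0.467, and 0.372 for Ccl7 (0.5), with isolation 3 lowest for both. For Cxcl1 it was 0.717, 0.745, and 0.794 (0.751), the narrowest spread of the 6. For Cxcl2, Cxcl3, and Cxcl5 the geometric means were 0.573, 0.507, and 0.549, over ranges of 0.387 to 0.767, 0.307 to 0.788, and 0.384 to 0.692. These 4 areas follow mostly the day 1 values, since the genes are low on days 3 and 7.

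Cxcl16 and Ccl20 had a larger area in Krt8-/- AECs in 3 of 3 isolations, as did 17.5% of all genes. For Ccl20 the ratio was 1.32, 1.58, and 1.65 (geometric mean 1.51), and for Cxcl16 it was 1.10, 1.03, and 1.00. The isolations disagreed for Cxcl10 (0.907, 2.20, and 0.399) and Cx3cl1 (0.930, 0.915, and 1.47).

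**Figure D3:**
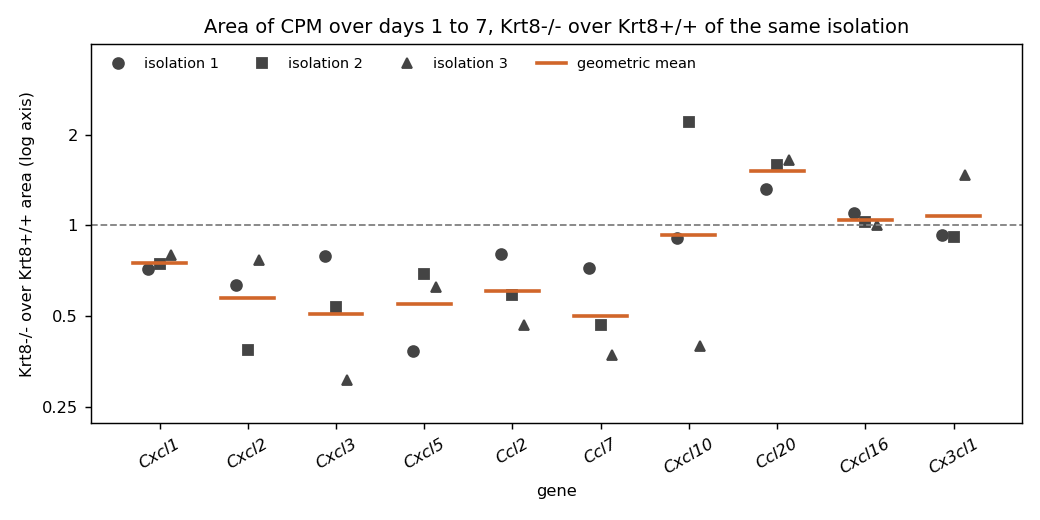
Ratio of the Krt8-/- to the Krt8+/+ area of CPM over days 1 to 7 (log axis) for each chemokine gene. Points are the 3 isolations, the bar is their geometric mean, and the dashed line is a ratio of 1. The 6 genes on the left lie below 1 in every isolation, Ccl20 lies between 1.32 and 1.65, and Cxcl10 runs from 0.399 to 2.20.

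The area of the summed macrophage markers over days 1 to 7 was smaller in Krt8-/- AECs in each isolation, as were those of Ccl2 and Ccl7. On day 1, the sum of the 10 macrophage markers was 428, 253, and 48.4 CPM in Krt8+/+ and 245, 204, and 42.7 CPM in Krt8-/- AECs, with ratios of 0.573, 0.805, and 0.883. Over days 1 to 7 the ratio of its area was 0.623, 0.854, and 0.850. This ratio was lowest in isolation 1, while the area ratios of Ccl2 and Ccl7 were lowest in isolation 3. The markers differed in this. Adgre1 (0.350, 0.411, and 0.135) and Marco (0.326, 1.43, and 0.312) had their lowest area ratio in isolation 3, and C1qb was at 0 in isolations 2 and 3. The ratios of Cd68, Mrc1, Chil3, Csf1r, Siglecf, Mertk, and C1qa were lowest in isolation 1. Among single culture days, the ratio of the macrophage sum was above 1 in isolation 2 on day 3 (1.03) and in isolation 3 on day 7 (1.14). All 10 macrophage markers had negative log2 differences on day 1 and over days 1 to 7, with medians of -0.54 and -0.58. None passed 0.05 by edgeR, with 0 and 1 at an unadjusted p under 0.05 (3.54% and 2.88% of all genes). All 7 fibroblast markers (medians -0.24 and -0.22) and all 3 monocyte and pan-leukocyte markers tested (-0.64 and -0.63) were negative in both comparisons too. Of 4 lymphocyte markers tested, 3 were positive in both, and on day 7 5 fibroblast markers were positive. Of the defining markers, Csf1r was at 2.62 to 35.6 CPM in all libraries and Adgre1 at 0 to 9.18 CPM.

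The order of the isolations differed between the macrophage sum and Ccl2. The sum was lowest in isolation 3 on every day in both genotypes, at 33.5 CPM on day 3 and 10.8 CPM on day 7 in Krt8+/+ AECs. Ccl2 and Ccl7 were highest in isolation 3 of Krt8+/+ AECs on those days, at 69.7 and 38.7 CPM on day 3. The macrophage sum in fresh Krt8+/+ AEC2s was 147, 69.4, and 19.8 CPM. On day 1 it was 428, 253, and 48.4 CPM. Of its 10 genes, 9 had positive log2 changes from day 0 (median 1.73, beside 0.00 over all genes). By edgeR, 1 of the 10 rose past the threshold, as did 26.2% of all genes. Ccl2 rose from 11 to 2747 counts over the 3 libraries. The fibroblast sum of Krt8+/+ AECs went from 184 CPM on day 1 to 1371 and 1268 CPM on days 3 and 7, and its area ratios between genotypes were 0.679, 0.939, and 1.20. The part of these cells in the chemokine values was not tested.

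**Figure D4:**
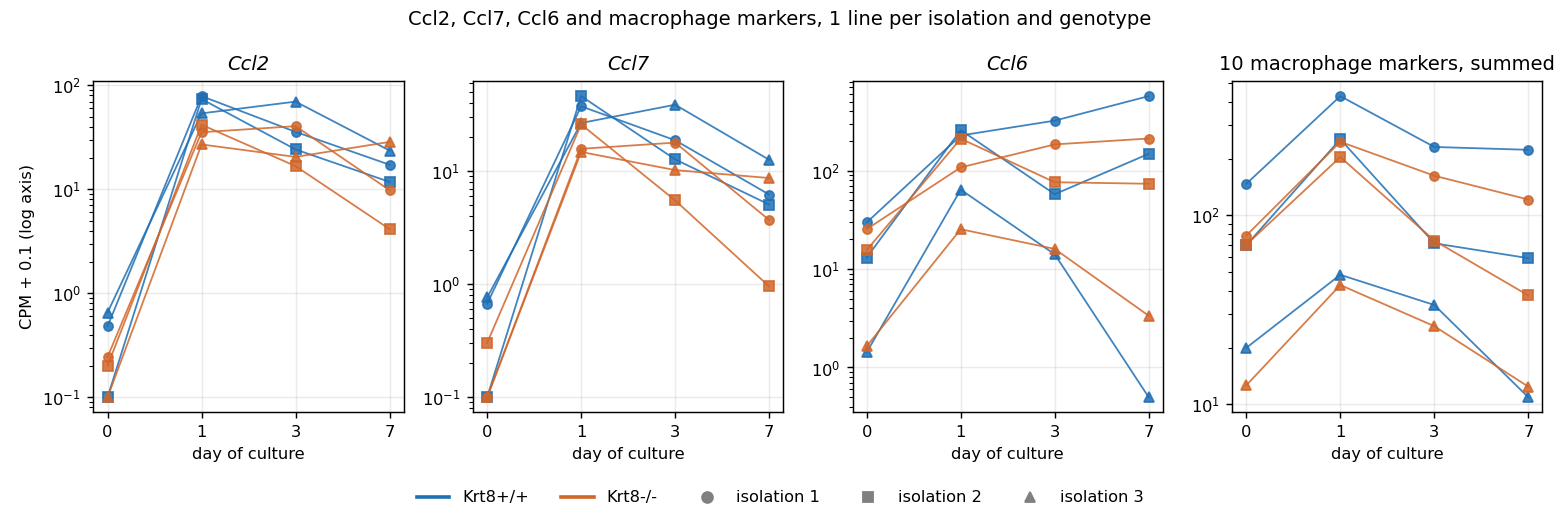
Ccl2, Ccl7, Ccl6, and the sum of 10 macrophage markers (CPM + 0.1, log axis) by day of culture, with 1 line for each isolation and genotype. In isolation 3 (triangles), the macrophage sum and Ccl6 are the lowest on day 3, while Ccl2 is at 69.7 CPM in Krt8+/+ AECs.

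Chemokine ligands outside the 10 genes were counted from a list of 28, of which 18 could be tested. On day 1 against day 0, 6 of these 18 rose and 4 fell in Krt8+/+ AECs (26.2% and 28.5% of all genes), and 2 rose and 4 fell in Krt8-/- AECs (23.7% and 26.9%). On day 7, 5 were higher and 6 lower in Krt8+/+ (28.6% and 30.2%), and 5 were higher and 7 lower in Krt8-/- AECs (28.6% and 29.9%). Between genotypes none passed 0.05 by edgeR. Over days 1 to 7, 4 did so at an unadjusted p from edgeR (2.88% of all genes), with 15 negative and 3 positive differences and a median of -0.43.

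The most abundant of them, Cxcl15 (lungkine, a chemokine of lung epithelium), was lost with the AEC2 markers. Its mean in Krt8+/+ AECs was 5175 CPM when fresh and 913, 4.71, and 0.156 after 1, 3, and 7 days. The Krt8-/- means were 5085, 670, 3.92, and 0.168. Cxcl17, a chemokine of mucosal epithelium, fell from 43.5 ± 14.7 to 1.07 ± 0.701 CPM (SD, n = 3) between days 0 and 7 in Krt8+/+ AECs (-5.33 ± 0.43, adjusted p = 2.07e-09). The area of Cxcl17 was larger in Krt8-/- AECs in each isolation (1.49, 1.38, and 1.93).

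Ccl6 and Ccl9, which myeloid cells make, were lowest in isolation 3 on every day in both genotypes, as the macrophage sum was. Ccl6 was at 571, 148, and 0.398 CPM in Krt8+/+ and at 212, 73.4, and 3.25 CPM in Krt8-/- AECs on day 7. Ccl9 rose by 4.68 ± 1.42 on day 1 in Krt8+/+ AECs (adjusted p = 0.0085), and its area ratios were 0.351, 0.707, and 0.930. Ppbp, a neutrophil chemokine known from platelets, was higher on day 7 than on day 0, going from a mean of 0.130 CPM on day 0 to 15.8 on day 7 in Krt8+/+ (adjusted p = 0.000102) and to 24.2 in Krt8-/- AECs, and its areas were larger in Krt8-/- AECs (1.26, 2.09, and 4.90). Cxcl14 reached 41.7 ± 18.1 CPM on day 3 in Krt8+/+ AECs (3.74 ± 1.19 above day 0, adjusted p = 0.0114), Cxcl12 rose by 2.24 ± 0.73 on day 1 (adjusted p = 0.014), and Ccl25 stayed at means of 4.59 to 8.88 CPM.

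**Figure D5:**
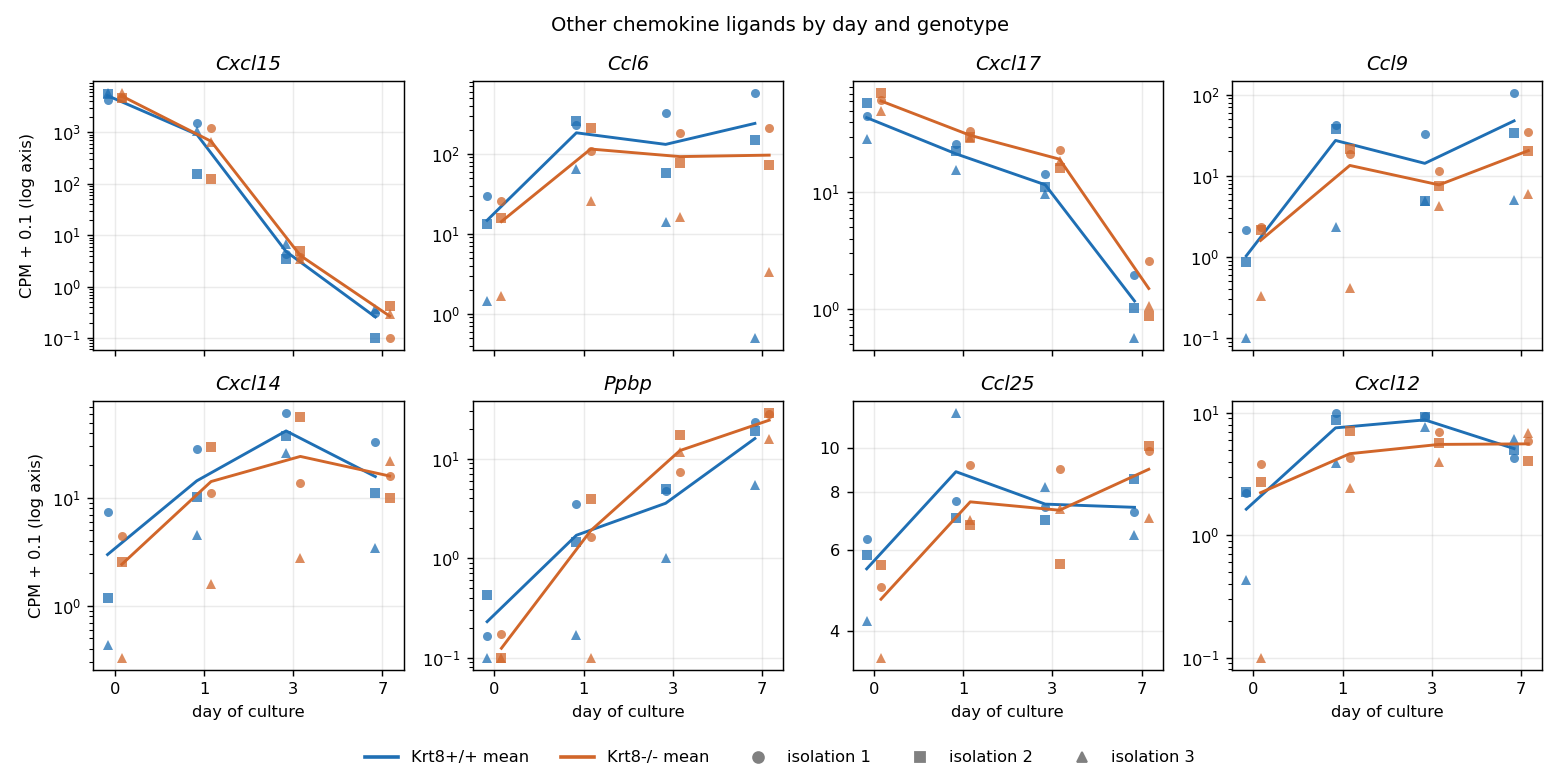
Level (CPM + 0.1, log axis) of the 8 other chemokine ligands with the highest group means, by day of culture at equal steps. Points are the 3 isolations of each genotype and lines join group means. Cxcl15 falls from 5175 CPM to below 1 CPM in Krt8+/+ AECs, while Ppbp rises to 15.8 and 24.2 CPM.

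Cxcl11, a Cxcr3 ligand like Cxcl10, and Ccl22 were picked out after their values were seen. The mouse gene annotation types Cxcl11 as a polymorphic pseudogene, and whether these mice carry a coding form was not tested. Cxcl11 had 0 counts in all libraries of days 0 and 1. On day 7 it was at 3.61, 3.40, and 0.597 CPM in Krt8+/+ and at 2.00, 4.91, and 0.510 CPM in Krt8-/- AECs. It thus shared the day 7 peak of Cxcl10 and not that of day 1, and its lowest library was isolation 3 in both genotypes. Ccl22 was at 11.9, 0, and 0.611 CPM on day 1 in Krt8+/+ AECs, nearly all of it in isolation 1, and at 0 in all 12 Krt8-/- libraries. It had too few counts to be tested.

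Receptors for these chemokines were scarce. Of 18 listed, 6 could be tested. On day 1 none rose (26.2% of all genes in Krt8+/+ and 23.7% in Krt8-/- AECs), while 1 fell in Krt8+/+ (28.5%) and 2 fell in Krt8-/- AECs (26.9%). The receptor of Ccl20, Ccr6, was at 9.78 ± 2.64 CPM in fresh Krt8+/+ AEC2s and at 0.199 ± 0.276 on day 1 (-5.56 ± 0.83, adjusted p = 5.67e-05), so that it was lost before Ccl20 rose. Ccr1, which leukocytes bear, had a mean of 6.28 CPM on day 1 in Krt8+/+ AECs (adjusted p = 0.0545), and Ccr7 and Cxcr6 did not exceed means of 2.68 and 1.97 CPM. Of the atypical receptors, Ackr3, which takes up Cxcl12, was 1.65 ± 0.62 above day 0 on day 7 in Krt8+/+ AECs (adjusted p = 0.0269), and Ackr1, Ackr2, and Ackr4 had group means of at most 0.797 CPM.

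Of 4 genes that shed or carry chemokines at the cell surface, 3 fell and none rose on day 1 in each genotype. Of all genes, 28.5% fell and 26.2% rose in Krt8+/+ AECs, and 26.9% fell and 23.7% rose in Krt8-/- AECs. Sdc1 and Sdc4, proteoglycans that bind chemokines, changed by -2.03 ± 0.20 and -1.65 ± 0.20 in Krt8+/+ AECs (adjusted p = 5.09e-08 and 1.02e-06). The sheddase Adam17 changed by -0.85 ± 0.16 (adjusted p = 0.000136), and Adam10 by -0.32 ± 0.17 (adjusted p = 0.111), on the day Cxcl16 RNA rose.

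The NF-kB pathway drives many chemokine genes. Of 14 genes listed, 9 rose and 2 fell on day 1 in Krt8+/+ AECs (26.2% and 28.5% of all genes), and 8 rose and 2 fell in Krt8-/- AECs (23.7% and 26.9%). On day 7 against day 0, 6 were higher and 2 lower in Krt8+/+ AECs (28.6% and 30.2% of all genes). Ikbkg, the regulatory subunit of the kinase complex, rose by 1.93 ± 0.14 and Rela by 0.57 ± 0.13. The inhibitor gene Nfkbia was 1.12 ± 0.18 above day 0 on day 1 (adjusted p = 3.3e-05) and 0.34 ± 0.18 above it on day 7 (adjusted p = 0.108), while Tnfaip3, which encodes another inhibitor, went from 1.21 ± 0.30 to 3.14 ± 0.31. Nfkbia thus shared the day 1 peak of Cxcl1, and Tnfaip3 did not.

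Of 16 tested genes of cytokines that induce chemokines and of their receptors, 5 rose and 5 fell on day 1 in Krt8+/+ AECs (26.2% and 28.5% of all genes), and 4 rose and 5 fell in Krt8-/- AECs (23.7% and 26.9%). Il1r1, the receptor of IL-1, changed by -1.64 ± 0.33, Tnfrsf1a by -1.03 ± 0.14, and Myd88, the adaptor of IL-1 and Toll-like receptors, by -0.74 ± 0.17, while Tnfrsf1b rose by 1.09 ± 0.27. Of 15 interferon pathway genes tested, 4 rose and 8 fell on day 1 in Krt8+/+, and 4 rose and 7 fell in Krt8-/- AECs, beside the same shares of all genes. Ifngr1 changed by -0.61 ± 0.18 and Ifnar1 by -0.35 ± 0.17 (adjusted p = 0.00738 and 0.0861) in Krt8+/+ AECs. Irf1 changed by -0.67 ± 0.20 when Cxcl10 rose, and Ifngr2 rose by 0.36 ± 0.13 on day 1 and was 1.46 ± 0.13 above day 0 on day 7.

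Zfp36, which encodes tristetraprolin, a protein that speeds the decay of chemokine and cytokine mRNA, had the highest group mean of an mRNA decay list. It went from 364 ± 51.6 CPM on day 0 to 84.3 ± 25.1 on day 1 in Krt8+/+ AECs (-2.11 ± 0.24, adjusted p = 3.25e-07) and by -2.17 ± 0.24 in Krt8-/- AECs. Of the 8 genes of that list, 2 rose and 1 fell on day 1 in each genotype, beside those shares of all genes. Elavl1, which stabilizes such mRNAs, rose by 0.40 ± 0.12 in Krt8+/+ AECs, and Zfp36l1 and Hnrnpd differed by -0.29 ± 0.14 and 0.25 ± 0.15 (adjusted p = 0.0904 and 0.162). None of the receptor, NF-kB, cytokine, interferon, or decay genes tested passed 0.05 between genotypes by edgeR.

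The genes most like each chemokine gene were taken from 15285 others by Pearson r of log2(CPM + 0.1) over the 24 libraries, as a description with no p, since the libraries share days and isolations. Among the 10 genes, Cxcl1, Cxcl2, Cxcl3, and Cxcl5 had r of 0.79 to 0.93 with each other and -0.21 to 0.28 with Ccl2 and Ccl7. Outside the list, Cxcl3 was most like Fth1 (0.907), the ferritin heavy chain, with Cebpb (0.895) among its nearest 3, and Cxcl1 was most like Gclc (0.947). Ccl2 was most like Nop56 (0.965), a nucleolar protein of ribosome assembly, and Cxcl16 like Lad1 (0.962), an anchoring protein of basement membrane. Cxcl10 was most like Gadd45g (0.902), and Ccl20 like Galnt12 (0.826), the lowest of these.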

How the data were processed

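Bulk RNA-seq of 24 libraries was analysed. The authors deposited 1 table of whole-number counts per gene. The submitters' processing notes name cutadapt 2.3, STAR 2.7.8a, RSEM 1.3.3, and GRCm38 without roles, and if the deposited counts are RSEM's, they were rounded before deposit. The sources used here do not state the annotation version or whether counting used strand. Of 55426 rows, 5 are reporter rows with 0 counts, and 55154 of the 55421 genes were matched to a symbol.

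Groups came from the labels. Counts were tested with edgeR 4.0.16 in R 4.3.3 (quasi-likelihood, TMM scaling, 8 groups in 1 model, 16 residual degrees of freedom), after filterByExpr with a minimum count of 10 and a minimum total of 15, which left 18046 genes, with Benjamini-Hochberg adjustment at 0.05. For days 1 to 7, the log2 values of the days were weighted by 0.167, 0.5, and 0.333. Intervals are at 95%. Those of log2 differences are built from the derived SE and are approximate too, and counting intervals cover counting error only. The labels give each library a date, and each date occurs in all groups, so the date, called isolation here, pairs the samples. The correlation of deviations of same-isolation samples ran from -0.0637 to 0.613. The labels call the isolations biological replicates. Alternatives were DESeq2 1.42.0, its size factors, no filter, isolation as a block, only the groups compared, and leaving out each isolation, with other scalings, weights, and starts for areas. Scripts were tested on simulated data.

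The 10 genes and all gene lists were chosen with earlier results of these data known. Named were the 10 genes, the 8 other ligands and the 4 genes of each pathway list with the highest group mean, any listed gene past 0.05 between genotypes, and, of the 3 genes most alike to each of the 10 (mean CPM of at least 1), those given. Cxcl11 and Ccl22 fall outside this rule.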

Additional observations from a re-analysis of the deposited data

How the results depend on the processing

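Counts of chemokine genes past 0.05 were within 1.5 times the reported count except in 3 comparisons. For day 1 against day 0 in Krt8-/- AECs, the count of 8 was 4 without isolation 1 (Cxcl1, Cxcl2, Cxcl3, and Cxcl10 lost) and 4 without isolation 2 (Cxcl1, Cxcl2, Cxcl3, and Cxcl5 lost), and 8 without isolation 3. For day 7 against day 3, the count of 1 in Krt8-/- AECs was 2 by DESeq2's test and 2 with no filter, both adding Cxcl1, 0 with only the groups compared, and 0 to 1 when an isolation was left out. The count of 0 in Krt8+/+ AECs was 1 (Cxcl10) with only the groups compared. The cause was not tested. With isolation as a replicate block, Ccl20 passed in 3 more comparisons (adjusted p = 0.0447, 0.0212, and 0.0279), and the block changed no other call of the 10 genes. No call past 0.05 changed direction. Of values with no call, the mean log2 area ratio of Cxcl10 ran from -0.73 to 0.50 and that of Cx3cl1 from -0.12 to 0.23 when an isolation was left out, Cxcl10's was 0.04 with 1 CPM added (-0.11 as reported), and with the block Cxcl2 and Cxcl10 on day 0 between genotypes (-0.25 to 0.04 and -0.05 to 0.14) and Ccl20 on day 1 in Krt8-/- AECs (-0.02 to 0.11) changed sign. Low counts of Ccl2, Ccl7, and Cxcl10 on day 0 limit the size of their folds.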
